A study of Mus musculus with 16 samples.

Results

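Primary lung fibroblasts from wild type C57BL/6J mice were compared with and without recombinant TGF-β1, using the arrays whose labels give wild type genotype and either vehicle or TGF-β1. These are 8 of the 16 arrays of the series, 4 with vehicle (0 ng/ml) and 4 with TGF-β1 at 5 ng/ml, both after 48 h. The mice were labelled female and 8 weeks old, and the cells were released from the lung by enzymatic digestion, with no sort or gate named in the labels. The other 8 arrays hold the same vehicle and TGF-β1 treatments of cells from Meflin knockout mice, which lack the gene Islr. They enter here for the filter on dim probes, the shared estimate of spread and the comparison of responses. The deposited design counts 4 independent experiments in each group but ties no array to a mouse or a culture, so each p-value reflects the spread between arrays alone, which may be technical, and the number of 4 arrays a group limits the precision.

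TGF-β1 is the cytokine best known for turning resting fibroblasts into myofibroblasts, cells that carry smooth muscle actin bundles, pull on their surroundings and lay down collagen. It is stored outside cells in a latent complex, is released by integrins, and signals through a pair of receptor kinases to SMAD proteins that enter the nucleus. Actin assembly sends a parallel signal through the cofactors of SRF (serum response factor), a transcription factor that binds the CArG box in front of many contractile genes. In the lung, myofibroblasts close wounds and fill fibrotic tissue, while resting fibroblasts support the alveolar wall and its epithelium.

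RNA was read on 1-colour Agilent arrays, as the intensity of each probe. Levels below are log2 intensities after each array was shifted to a common 75th percentile, and differences are TGF-β1 minus vehicle in log2 units with their standard error. Levels are compared between arrays and never between probes. The 75th percentile lay between 485.8 and 525.6 intensity units on the vehicle arrays and between 428.6 and 452.1 on the TGF-β1 arrays, and 32071 to 35472 probes per array were well above background. Within a group, any pair of arrays correlated at 0.9967 or more, and a vehicle with a TGF-β1 array at no more than 0.9738. The first principal component over the 8 arrays held 86.8% of the variance. All 11 fibroblast and myofibroblast markers, among them Col1a1, Pdgfra, Thy1, Acta2 and Cnn1, were well above background on all 8 arrays. The probe of Islr was well above background on all 8 wild type arrays and on 0 of the 8 knockout arrays.

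Most genes moved, but few moved far. A gene counts as changed at an adjusted p under 0.05, and 10560 of 15394 genes tested did so (68.6%). Rises made up 41.3% of the genes tested and falls 27.3%. The balance between rises and falls depended on scaling: rises were 60.2% of the changed genes here and 52.1% after quantile normalization. They were 46.1% in the authors' deposited value table, which holds only 5257 of the genes. Scaling and choice of genes cannot be told apart there. Only 3.26% of genes rose at least 2-fold and 6.45% fell at least 2-fold, which is 502 rises and 993 falls. Of these, 393 rises and 686 falls were well above background on all 8 arrays, and 31 rises and 7 falls were so on all 4 arrays of neither group. After normexp background correction with quantile normalization, 216 genes in all rose and 528 fell at least 2-fold. Among genes well above background on all 8 arrays there were 8 rises and 23 falls of at least 8-fold, while 2 rises and 0 falls reached 32-fold. The 4 TGF-β1 arrays lay above all 4 vehicle arrays for 38% of the genes tested, and below them for 25%. Among the genes past 2-fold, 493 of the 502 rises and 985 of the 993 falls had groups that did not overlap. Signal moved from background on all 4 vehicle arrays to well above it on all 4 TGF-β1 arrays in 30 genes, and the opposite way in 204.

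**Figure D1:**
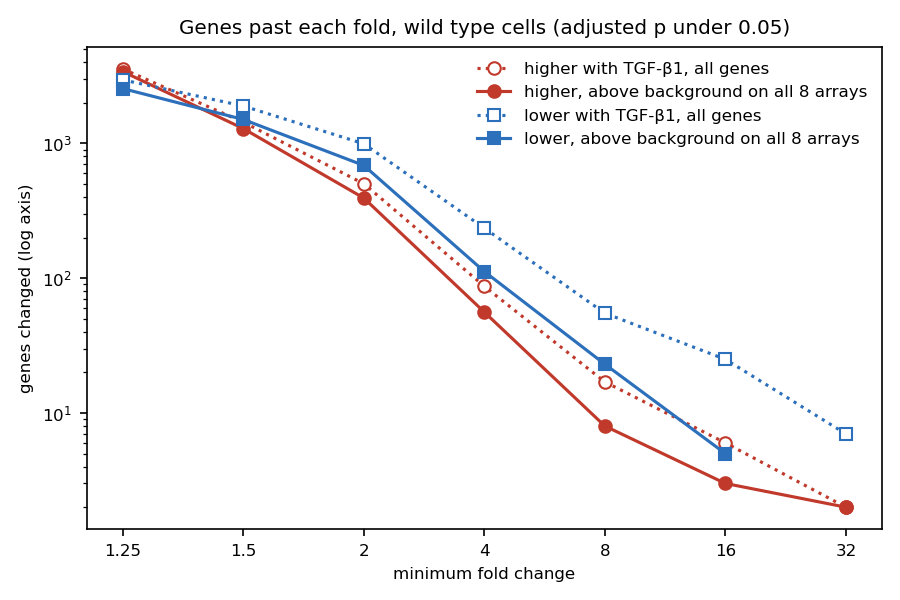
Number of genes with adjusted p under 0.05 in wild type cells (vertical, log axis) past each minimum fold change (horizontal), for genes higher (red circles) and lower (blue squares) with TGF-β1. Filled symbols count genes well above background on all 8 arrays, where rises outnumber falls at 1.25-fold (3410 against 2550), falls outnumber rises from 1.5-fold (1288 rises, 1504 falls) to 16-fold (3 and 5), and only the 2 rises pass 32-fold. Open symbols count all genes, and their larger folds include fitted values against groups at background, which are no measured folds.

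The largest rises among genes above background on every array began with Wfdc21, a secreted whey acidic protein family member. It read 4.11, 4.43, 4.65 and 4.66 on the vehicle arrays and 10.56, 10.75, 10.74 and 10.67 on the TGF-β1 arrays. Arg1, the enzyme that splits arginine into ornithine and urea, read 4.91, 5.28, 5.46 and 5.24 with vehicle and 10.86, 10.73, 10.77 and 10.83 with TGF-β1. In both genes the groups lay far apart, and the lowest reading was that of vehicle replicate 1. Ndufa4l2, a mitochondrial protein made in low oxygen, rose 9.99-fold (3.32 ± 0.07), and Mgarp, another mitochondrial protein, rose by 2.49 ± 0.08. Klhl30, an adaptor of the kelch family, rose by 3.15 ± 0.10. The other large rises belonged to genes of unlike function. Alkal1, a ligand of the receptor kinases ALK and LTK, rose 8.09-fold (3.02 ± 0.12, adjusted p = 1.03e-11). Calca, which encodes calcitonin and the vasodilator peptide CGRP, read 4.39, 4.59, 4.62 and 4.38 with vehicle and 7.50, 7.37, 7.54 and 7.27 with TGF-β1, a 7.59-fold rise. Npas4, a transcription factor induced by neuronal activity, rose by 2.87 ± 0.10, and Syt13, a synaptotagmin of vesicle traffic, by 2.51 ± 0.06. Angpt4, an angiopoietin that binds the receptor Tie2, rose 6.49-fold (2.70 ± 0.14). Erv3 rose by 2.74 ± 0.09 on its brightest probe and stood at 0.06 on another, so its rise rests on 1 probe.

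Other genes rose out of the background, and for these only a lower bound of the fold is known. The bound sets the TGF-β1 mean against, on each vehicle array, the higher of the probe's own signal and the dimmest signal called well above background. Kcnmb1, the beta subunit of the calcium-activated potassium channel of smooth muscle, rose at least 11.4-fold, from 2.13, 2.69, 2.88 and 1.33 to 7.21, 7.01, 7.20 and 7.17. Kcnma1, the pore of the same channel, was also below background on every vehicle array and rose at least 1.86-fold (adjusted p = 0.000628, but 0.106 within slide 2). The bound was 6.28-fold for Rtn4r, the Nogo receptor, 4.55-fold for Krt20, an epithelial keratin, and 3.98-fold for Tmem54. The metalloproteinase Adamts12 rose at least 2.97-fold, Klhl38 at least 2.86-fold and Lce1g at least 2.84-fold. The nuclear factor Dach2 (2.57-fold), the relaxin family receptor Rxfp3 (2.51-fold) and the chaperone Dnajc22 (2.45-fold) had the smallest bounds of the 10 examined.

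Among genes above background on every array the fall of Cdkn1c was the largest. Cdkn1c, an inhibitor of cyclin-dependent kinases, read 13.45, 13.47, 13.43 and 13.53 with vehicle and 8.99, 9.01, 8.95 and 8.95 with TGF-β1, a 22.5-fold fall. Inmt, a methyltransferase of alveolar fibroblasts, read 9.91, 9.94, 10.07 and 10.09 and 5.62, 5.88, 5.91 and 5.57 in the same order. Bex1, a small adaptor protein, read 12.66, 12.50, 12.59 and 12.56 and 8.49, 8.60, 8.62 and 8.51. In each of these the 4 arrays of a group lay close together and the groups were far apart. Lrrc14b fell 16.1-fold (-4.01 ± 0.14) and Scrg1, a secreted protein of mesenchyme, 15.7-fold (-3.98 ± 0.06). Enpp2, the secreted enzyme autotaxin that makes lysophosphatidic acid, fell 12.2-fold, from 9.97, 9.90, 9.87 and 9.90 to 6.29, 6.49, 6.32 and 6.10. Ephb1, a receptor for ephrins, was at -3.58 ± 0.24, the acyltransferase Awat1 at -3.57 ± 0.13, and Clec3b, the plasminogen-binding protein tetranectin, at -3.43 ± 0.16. The chemokine receptor Cxcr1 fell by 3.62 ± 0.07. Pdzk1ip1 was at -3.81 ± 0.26 on its brightest probe and -2.55 on another. The lymphoid chemokine Ccl21a was at -3.69 ± 0.16, with the caution that its near-identical copies may share the probe.

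Some genes fell into the background. Ces1d, a carboxylesterase that splits lipids and drugs, read 9.74, 9.74, 9.93 and 9.79 with vehicle, and fell at least 60.7-fold. Cxcl13, which attracts B cells, fell at least 34.5-fold from 8.92, 8.81, 9.09 and 9.12. Agtr2, the type 2 receptor of angiotensin, fell at least 25.8-fold from 8.73, 8.56, 8.43 and 8.55. None of these was well above background on any TGF-β1 array. Smaller bounds held for Itih3, which links to hyaluronan (12.3-fold), Scube1, a secreted protein with EGF domains (10.1-fold), Scara5, a ferritin receptor (9.8-fold), Ranbp3l, which exports BMP-type SMADs from the nucleus (9.59-fold), and Saa2, a serum amyloid A protein (7.95-fold). Cilp, a cartilage matrix protein, fell at least 7.64-fold and Nwd2 at least 7.46-fold. Scara5 has another probe, where the difference was -0.82, and that of Scube1 was -4.11 on its other probe. Bulk RNA cannot tell fewer cells of a type from less RNA per cell, and this holds for every fall and rise reported here.

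**Figure D2:**
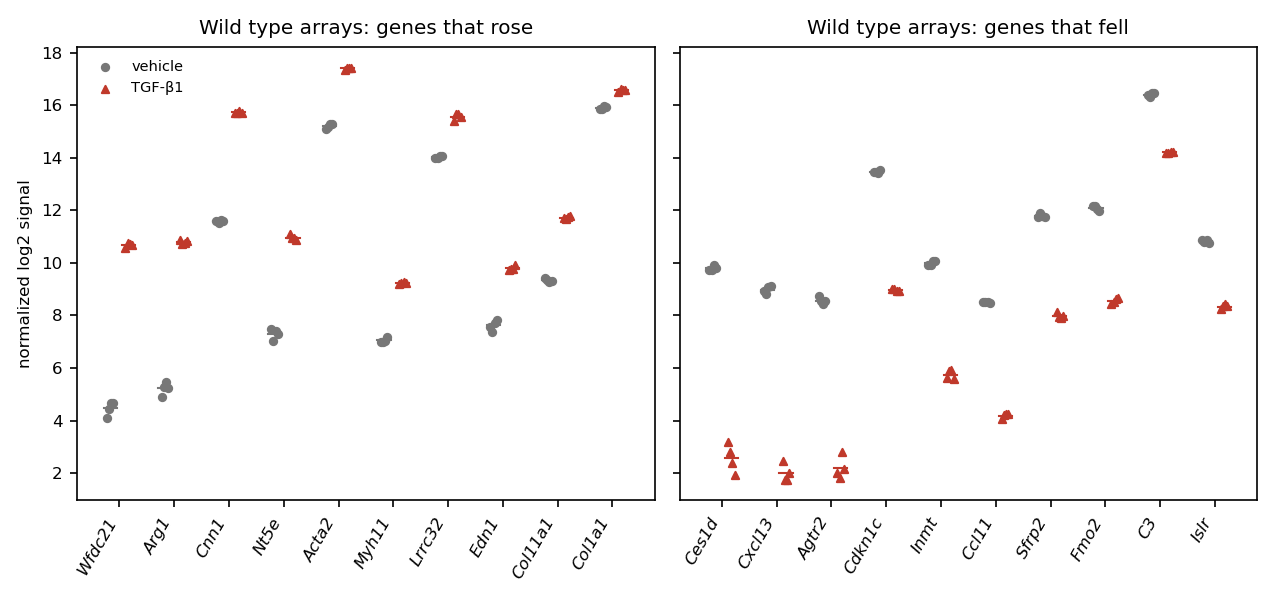
Normalized log2 signal (vertical) on each of the 4 vehicle arrays (grey circles) and 4 TGF-β1 arrays (red triangles) for 10 genes that rose (left) and 10 that fell (right), with a short line at each group mean. In none of the 20 genes do the groups overlap, but the largest rises and falls were picked from genes whose groups did not overlap. For those genes the lack of overlap is no separate evidence. Ces1d, Cxcl13 and Agtr2 with TGF-β1 are not well above background, so their distance from vehicle is only a bound.

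To follow the response by function, 44 lists of genes were written by role, with earlier results of these data known. Their shares and medians therefore describe the lists and are no independent support. Of their 919 distinct genes, 881 passed the filter on dim probes. Of these 881, 99 rose and 146 fell at least 2-fold, beside 3.26% and 6.45% of all genes tested. After normexp correction 65 rose at least 2-fold. Smaller changes are read against the 41.3% of all genes that rose and the 27.3% that fell. The lists are described by counts and medians beside those of all genes tested, where the median difference was 0.08, 0.02 after quantile normalization, and -0.08 in the value table that the authors deposited.

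**Figure D3:**
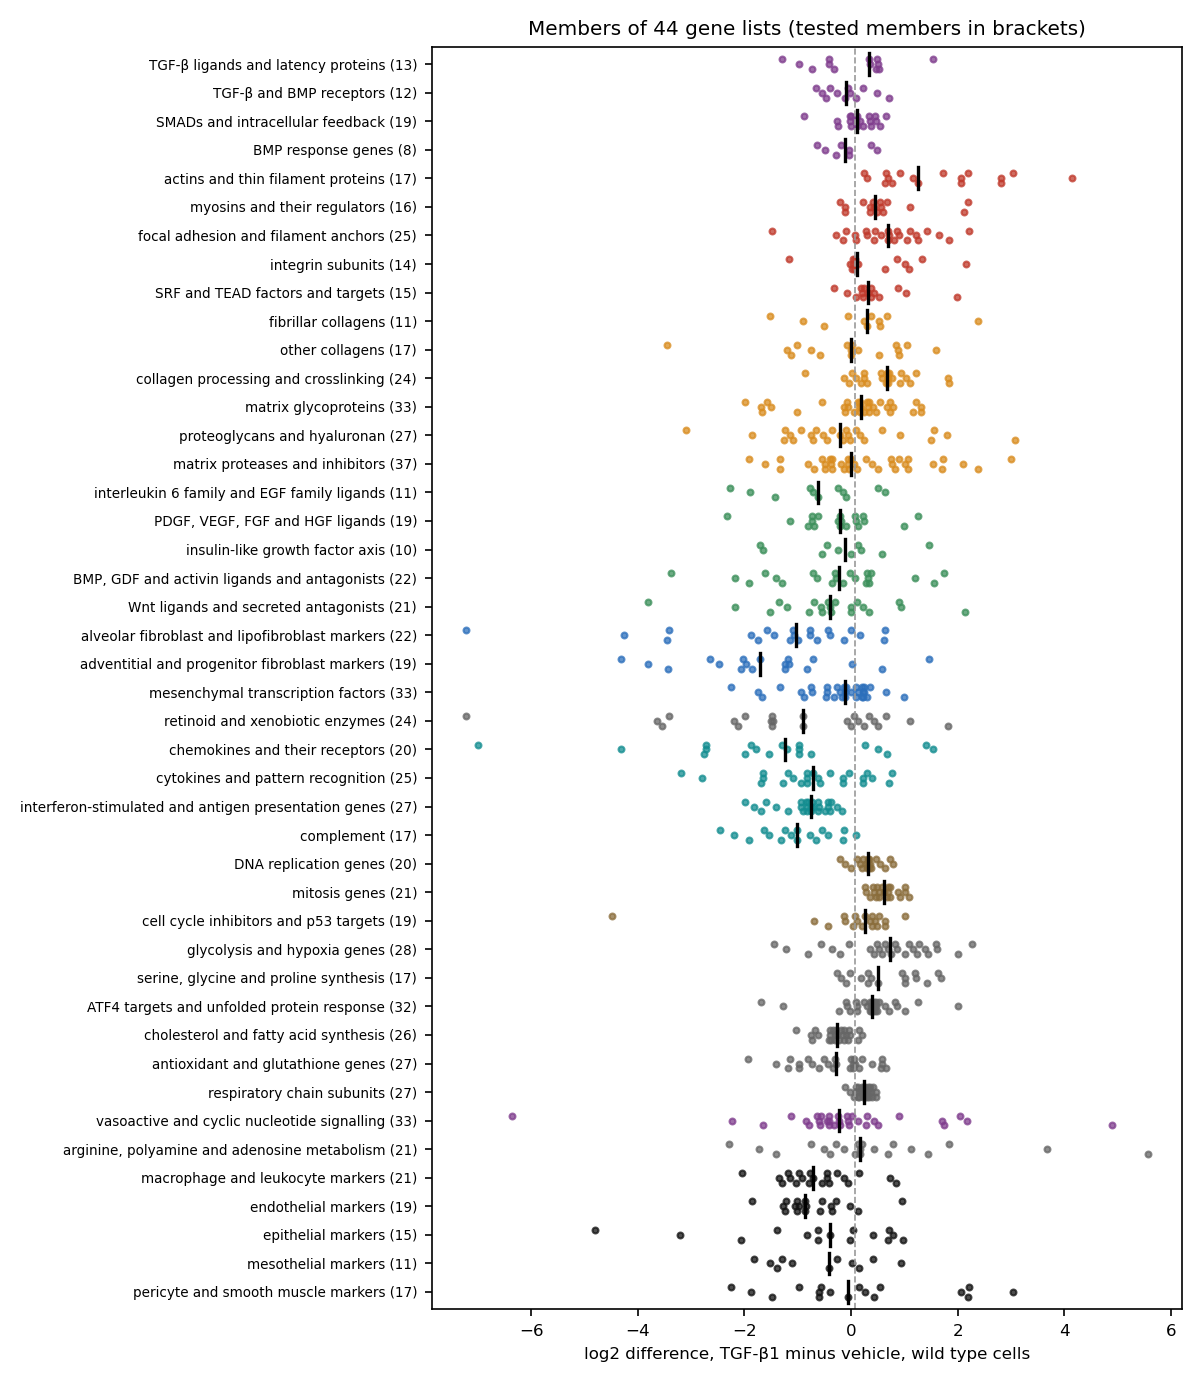
Log2 difference, TGF-β1 minus vehicle, in wild type cells (horizontal) for each tested member of 44 gene lists (points, 1 row per list, colours group related lists). The black bar is the median of the list and the dashed line the median of all 15394 genes, 0.08. Actins and thin filament proteins (median 1.26) stand highest, and adventitial and progenitor fibroblast markers (median -1.70) lowest.

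The pathway's own parts shifted in both directions. Of 13 ligands and latency proteins of TGF-β, 7 rose and 6 fell, with a median of 0.34 that became -0.12 over the 8 members in the authors' value table. Lrrc32, known as GARP, which docks latent TGF-β on the cell surface, read 14.01, 13.98, 14.07 and 14.07 with vehicle and 15.42, 15.66, 15.66 and 15.57 with TGF-β1, a 2.92-fold rise. Its relative Nrros, which docks latent TGF-β on microglia and macrophages, went the other way, at -0.98 ± 0.06. Among the ligands Tgfb1 fell (-0.41 ± 0.08) while Tgfb2 (0.50 ± 0.06) and Tgfb3 (0.46 ± 0.05) rose. The latent TGF-β binding proteins were split likewise, with Ltbp1 at 0.49 and Ltbp2 at 0.34 against Ltbp3 at -0.41 and Ltbp4 at -0.73. Of the integrin chains that release the ligand, Itgb5 (0.53 ± 0.04) and Itgav (0.35 ± 0.05) rose, and Itgb6 fell at least 1.43-fold to background (adjusted p = 0.00474, but 0.147 within slide 1).

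Receptors of the family moved both ways. Of 12 TGF-β and BMP receptors 3 rose and 6 fell, none by 2-fold, with a median of -0.09. The signalling receptors Tgfbr1 (-0.55 ± 0.07) and Tgfbr2 (-0.26 ± 0.05) and the co-receptor Tgfbr3 (-0.65 ± 0.05) fell. The BMP type I receptor Bmpr1b (0.71 ± 0.05) and Acvrl1, the endothelial type I receptor ALK1 (0.49 ± 0.07), rose. Among 19 SMADs and intracellular regulators 9 rose and 3 fell, again none by 2-fold. Of the 9 that are in the authors' value table, 1 fell 2-fold there. The negative regulators of the pathway gave the largest rises, with Pmepa1 at 0.65 ± 0.03 and Smad7 at 0.55 ± 0.05. Smad3, the effector of TGF-β, fell by 0.25 ± 0.04, Smad1 of the BMP branch rose by 0.47 ± 0.07, and Smad9 of the same branch fell by 0.88 ± 0.09. The direct BMP targets of the Id family differed, with Id1 at -0.49, Id2 at -0.29 and Id4 at -0.63 but Id3 at 0.49. Across 8 BMP response genes 2 rose and 4 fell.

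The contractile genes rose together. All 17 actins and thin filament proteins tested rose, 10 of them at least 2-fold, with a median of 1.26, the highest of the 44 lists. Cnn1, or calponin, which binds actin in smooth muscle, read 11.61, 11.53, 11.65 and 11.60 with vehicle and 15.71, 15.72, 15.79 and 15.73 with TGF-β1. Acta2, the smooth muscle actin by which myofibroblasts are recognized, read 15.12, 15.17, 15.30 and 15.30 and 17.36, 17.41, 17.44 and 17.44. Both genes had tight, widely separated groups, with a 17.7-fold rise in Cnn1 (adjusted p = 1.54e-16) and a 4.56-fold rise in Acta2 (adjusted p = 3.31e-14). The actins of heart and skeletal muscle rose too. Actc1 read 11.60, 11.61, 11.67 and 11.70 with vehicle and 14.52, 14.41, 14.43 and 14.47 with TGF-β1. Acta1 read 9.95, 10.07, 10.02 and 10.01 and 12.85, 12.80, 12.78 and 12.87, and Actg2, the enteric smooth muscle actin, rose by 2.07 ± 0.04. In all 3 the groups lay apart on every array, but Actc1 and Acta1 were picked from genes whose groups did not overlap. Lmod1, which starts actin filaments in smooth muscle, was above background on 1 of 4 vehicle arrays and all 4 TGF-β1 arrays, at 3.63, 3.48, 3.59 and 3.83 against 6.56, 6.60, 6.76 and 6.75. Tpm2, a tropomyosin (2.06 ± 0.03, 0.91 on another probe), and Tagln (1.73 ± 0.06), or transgelin, followed. The actins of every cell stood lower. Actg1 was at 0.91 ± 0.03, with 0.94 and -0.40 on its other probes, and Actb was at 0.25 ± 0.06, or 0.07 after quantile normalization and 0.00 after normexp correction.

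Motor proteins and anchors rose in part. Of 16 myosins and regulators 13 rose and 2 fell, 3 of them rising at least 2-fold. These were Myh11, the smooth muscle myosin heavy chain, at 6.98 to 7.19 with vehicle and 9.21 to 9.27 with TGF-β1, its regulatory light chain Myl9 (2.13 ± 0.04), and the light chain kinase Mylk (1.11 ± 0.04). The non-muscle heavy chains Myh9 and Myh10 rose less, by 0.60 ± 0.05 and 0.36 ± 0.05. Of 25 focal adhesion and filament anchor genes 19 rose and 4 fell. Des, the muscle intermediate filament desmin, rose 4.64-fold, from 8.37, 8.46, 8.44 and 8.32 to 10.63, 10.56, 10.59 and 10.66. Lims2 of the integrin-linked complex (1.83 ± 0.04), the Z-disc protein Ldb3 (1.65 ± 0.13, 0.49 on another probe), Pdlim7 (1.44 ± 0.06), Actn1 (1.26 ± 0.05) and Tgfb1i1, known as Hic-5 (1.22 ± 0.05), also passed 2-fold. Synpo2, an actin bundler of muscle, went against the rest at -1.49 ± 0.17.

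Integrins split by chain. Of 14 subunits 6 rose, 1 fell and 7 did not pass, with a median of 0.11. Itga7, the muscle laminin receptor, read 9.49, 9.62, 9.75 and 9.42 with vehicle and 11.66, 11.69, 11.81 and 11.79 with TGF-β1. The collagen receptor chains Itga2 (1.33 ± 0.11) and Itga11 (1.02 ± 0.07), the fibronectin receptor chain Itga5 (1.09 ± 0.09) and the common partner Itgb1 (0.87 ± 0.05) rose. Itga4, which binds fibronectin and VCAM-1, fell by 1.16 ± 0.07. Of 15 SRF and TEAD factors and targets 13 rose and 1 fell. Ankrd1, a mechanosensitive muscle protein, rose 3.95-fold, from 10.22, 10.19, 10.40 and 10.35 to 12.32, 12.22, 12.27 and 12.27, and Ccn2, the connective tissue growth factor, by 0.88 ± 0.08. The SRF cofactor Mrtfb fell by 0.32 ± 0.05.

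The promoters of the contractile genes were read for the CArG box, since SRF acts through it. A promoter here is 250 bases before to 50 bases after a RefSeq gene start in GRCm38.p6, 300 bases in all. Of 58 tested members of the 3 contractile lists, 48 matched the RefSeq table, with 61 promoters, and 14 of these held a CArG box (22.95%). The share was 1.63% among all 32851 promoters of the table, 4.64% among those of genes that rose at least 2-fold and 1.92% among those of genes that fell at least 2-fold. The TEAD motif GGAATG, searched on both strands, was in 27.87% of the contractile promoters and 14.66% of all promoters. The SMAD motif CAGAC, also on both strands, was in 50.82% and 49.59%. A match is a run of letters and not a shown binding site. The 4 promoters below are those of contractile genes that rose at least 2-fold and have a single start with a box. They are printed 5′ to 3′ on the gene's strand with the CArG box in capitals, so that the place of the box can be compared.
Actc1 (chr2:114052826-114053125, minus strand): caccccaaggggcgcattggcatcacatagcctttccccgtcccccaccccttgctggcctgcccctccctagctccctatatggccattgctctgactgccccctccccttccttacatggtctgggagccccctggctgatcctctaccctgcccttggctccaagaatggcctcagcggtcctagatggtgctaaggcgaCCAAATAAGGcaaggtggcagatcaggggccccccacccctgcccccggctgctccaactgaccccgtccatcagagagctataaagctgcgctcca
Acta1 (chr8:123894726-123895025, minus strand): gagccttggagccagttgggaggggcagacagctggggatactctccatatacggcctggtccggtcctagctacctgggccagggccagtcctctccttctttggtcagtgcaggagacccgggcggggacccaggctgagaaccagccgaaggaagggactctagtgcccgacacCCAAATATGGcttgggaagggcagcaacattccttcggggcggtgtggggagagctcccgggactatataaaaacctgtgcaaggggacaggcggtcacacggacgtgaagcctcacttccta
Myl9 (chr2:156775214-156775513, plus strand): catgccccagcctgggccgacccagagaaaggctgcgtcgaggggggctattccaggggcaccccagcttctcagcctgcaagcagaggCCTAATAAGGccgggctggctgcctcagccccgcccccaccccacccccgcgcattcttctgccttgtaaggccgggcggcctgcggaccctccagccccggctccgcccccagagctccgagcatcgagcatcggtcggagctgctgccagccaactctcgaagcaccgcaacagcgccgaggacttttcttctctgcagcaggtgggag
Cnn2 (chr10:79988350-79988649, plus strand): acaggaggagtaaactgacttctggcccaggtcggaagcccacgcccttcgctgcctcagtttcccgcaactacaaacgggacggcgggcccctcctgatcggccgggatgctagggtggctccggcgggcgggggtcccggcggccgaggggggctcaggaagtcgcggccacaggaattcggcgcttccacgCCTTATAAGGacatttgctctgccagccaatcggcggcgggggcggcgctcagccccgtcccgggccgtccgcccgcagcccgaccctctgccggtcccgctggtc
The first base of the box lies at -47 from the start in Actc1, -73 in Acta1, -161 in Myl9 and -56 in Cnn2. Actc1 and Acta1 rose by 2.82 ± 0.04 and 2.81 ± 0.04, Myl9 by 2.13 ± 0.04 and Cnn2, a calponin of non-muscle cells, by 1.17 ± 0.04. The order of these rises did not follow the place of the box, since that of Cnn2 lies nearer the start than that of Acta1. Fhl2 (1.11 ± 0.05) carries a box at both of its listed starts. The listed starts of Ldb3 lie so close together that the same box falls in both promoters and is counted in each. Other members with a box moved little or the other way, as Vcl, or vinculin, at 0.30 ± 0.06 (0.09 after quantile normalization) and Fhl1 at -0.29 ± 0.04. Outside the lists, named genes with a box that rose at least 2-fold included the muscle ubiquitin ligase subunits Asb2 (2.22 ± 0.15, 3 of 4 vehicle arrays above background) and Fbxl22 (2.00 ± 0.16), and the LIM protein Lmcd1 (1.22 ± 0.04). They were picked after their values were seen.

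The collagens did not rise as a block. Of 11 fibrillar chains tested 7 rose and 2 fell, with a median of 0.30 that became -0.20 over the 6 chains in the authors' value table. Col1a1, the main chain of type I collagen, read 15.87, 15.85, 15.96 and 15.94 with vehicle and 16.53, 16.62, 16.57 and 16.60 with TGF-β1, a 1.6-fold rise. Col1a2 rose by 0.54 ± 0.05 and Col5a1, which seeds type I fibrils, by 0.53 ± 0.05. Col11a1, a minor fibrillar chain of cartilage, rose most, from 9.41, 9.34, 9.28 and 9.33 to 11.70, 11.68, 11.74 and 11.79, or 5.22-fold. Its groups lay farther apart than those of any other fibrillar chain that rose. Col5a3 (-0.90 ± 0.09) and Col27a1 (-1.52 ± 0.10) fell. The sign of the small difference in Col3a1, 0.30 ± 0.04, turned to -0.05 after quantile normalization, and was -0.05 in the authors' value table.

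Among 17 other collagens 6 rose and 6 fell. Col12a1, which coats fibrils, rose 3-fold (1.59 ± 0.05), and the basement membrane chains Col4a1 (1.05 ± 0.05) and Col4a2 (0.84 ± 0.04) rose together. The paired chains of type VI collagen, Col6a1 and Col6a2, fell by 1.20 ± 0.04 and 1.13 ± 0.05, while their partner Col6a3 stood at 0.00 ± 0.06. Col13a1, a membrane collagen that marks alveolar fibroblasts, read 7.96, 7.87, 8.27 and 8.11 with vehicle and 4.96, 3.95, 4.53 and 4.93 with TGF-β1, above background on 3 of the 4 TGF-β1 arrays, and another probe gave -2.19. The enzymes that shape collagen rose more evenly than the chains. Of 24 processing and crosslinking genes 19 rose and 2 fell, with a median of 0.67. P4ha2, a prolyl hydroxylase that stabilizes the triple helix, rose 3.59-fold, from 11.98, 11.94, 12.12 and 12.08 to 13.80, 13.87, 13.94 and 13.88. The crosslinking oxidases rose, Loxl3 by 1.82 ± 0.06, Loxl4 by 1.23 ± 0.05, Loxl2 by 1.11 ± 0.07 and Lox by 1.03 ± 0.04. Plod2, the lysyl hydroxylase of fibrotic crosslinks, rose by 0.94 ± 0.12. Pcolce2, an enhancer of procollagen cleavage, fell by 0.86 ± 0.05.

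**Figure D4:**
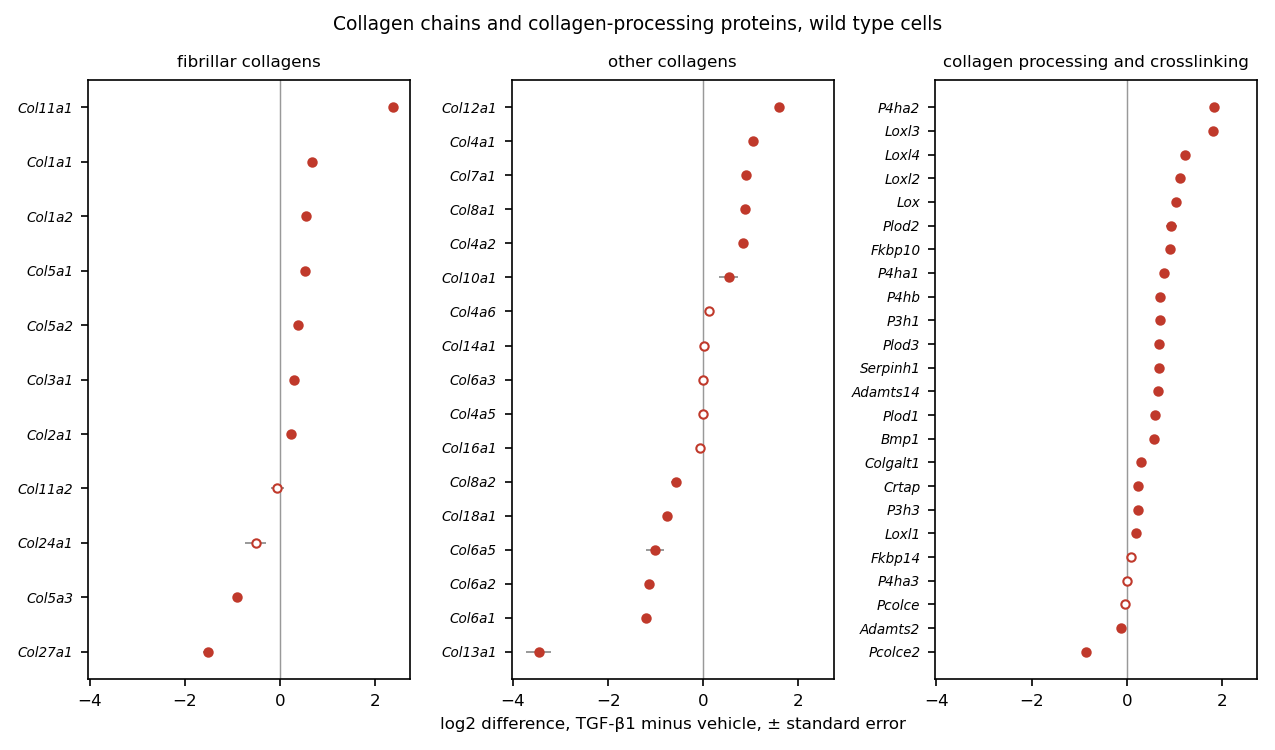
Log2 difference, TGF-β1 minus vehicle, with its standard error (horizontal, bars mostly smaller than the points) for fibrillar collagens, other collagens, and proteins that process or crosslink collagen in wild type cells. Filled points have adjusted p under 0.05 and open points do not. Chains spread from -3.46 (Col13a1) to 2.38 (Col11a1), and processing proteins from -0.86 to 1.84. Col10a1 was not well above background on any wild type array.

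Matrix glycoproteins went both ways, with elastin among the falls. Of 33 tested 20 rose and 8 fell, with a median of 0.19, or -0.20 over the 19 in the authors' value table. Thbs1, or thrombospondin, which can activate latent TGF-β (1.31 ± 0.07), Tnc, or tenascin C (1.31 ± 0.16), Cthrc1, a marker of fibrotic fibroblasts (1.22 ± 0.08), and Fbln2 (1.16 ± 0.05) passed 2-fold. Cthrc1 read 11.14, 11.00, 11.10 and 11.11 with vehicle and 12.41, 12.28, 12.29 and 12.24 with TGF-β1. Postn, or periostin, rose by 0.55 ± 0.06. Eln, the elastic fibre core protein elastin, read 10.65, 10.60, 10.87 and 10.88 with vehicle and 9.10, 9.14, 9.03 and 9.03 with TGF-β1, so all 4 TGF-β1 arrays lay well below. Its fibre partners Mfap4 (-1.57 ± 0.05), Mfap2 (-1.01 ± 0.04), Fbln1 (-1.68 ± 0.10) and Fbln5 (-0.55 ± 0.04) fell with it, as did Efemp1, or fibulin 3 (-1.50 ± 0.07). The fibrillin Fbn2 went up by 0.73 ± 0.06, and so did the microfibril protein Mfap5 by 0.78 ± 0.05. Comp, a cartilage matrix protein, was at -2.00 ± 0.25 with 2 of 4 TGF-β1 arrays above background.

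Small leucine-rich proteoglycans, which bind and space collagen fibrils, fell. Fmod, or fibromodulin, read 11.88, 11.98, 11.91 and 11.88 with vehicle and 8.89, 8.80, 8.82 and 8.77 with TGF-β1, an 8.5-fold fall. Omd (-1.25 ± 0.15), Ogn (-1.24 ± 0.05), Aspn (-1.15 ± 0.12), Lum (-0.76 ± 0.06), Dcn (-0.71 ± 0.04) and Prelp (-0.66 ± 0.06) also fell, while Bgn, or biglycan, stood at 0.10 ± 0.05 and passed only when vehicle replicate 2 was left out (0.14, adjusted p = 0.0217). Over 27 proteoglycan and hyaluronan genes 8 rose and 15 fell. The hyaluronan synthases went opposite ways, with Has1 down by 1.85 ± 0.11 and Has2 up by 1.79 ± 0.05. Has2 read 8.77, 8.80, 8.68 and 8.75 with vehicle and 10.62, 10.57, 10.41 and 10.58 with TGF-β1, and Has1 7.63, 7.54, 7.36 and 7.46 and 5.92, 5.40, 5.70 and 5.56. The hyaluronan-degrading protein Cemip rose by 1.51 ± 0.07. Aggrecan, encoded by Acan and typical of cartilage, came out of background with a rise of at least 1.69-fold.

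Matrix proteases and inhibitors went both ways, 15 up and 13 down of 37, with 9 rises (5 after normexp correction) and 4 falls of at least 2-fold. The plasminogen activators fell, Plat by 0.80 ± 0.08 and Plau by 0.70 ± 0.07. The membrane proteases Adam12 (2.11 ± 0.08) and Adam19 (1.72 ± 0.03) rose, and Adam33 fell by 1.91 ± 0.10. Stromelysins split, with Mmp10 at 1.71 ± 0.11 and Mmp3 at -1.33 ± 0.04. Mmp11 (1.07 ± 0.05), Mmp13 (1.06 ± 0.07), Adamts4 (1.55 ± 0.04) and the inhibitor Timp3 (1.02 ± 0.06) rose past 2-fold. The gelatinase Mmp2 (-1.34 ± 0.06) and the collagen-degrading cathepsin Ctsk (-1.62 ± 0.07) fell.

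More growth factor ligands fell than rose. Of 11 ligands of the interleukin 6 and EGF families 2 rose and 6 fell. The EGF receptor ligand Areg, or amphiregulin, fell at least 1.44-fold to background, and Ereg, or epiregulin, read 11.64, 11.50, 11.73 and 11.77 with vehicle and 9.79, 9.73, 9.79 and 9.77 with TGF-β1. Nrg1, which signals through the related ERBB receptors, fell by 1.42 ± 0.06, with the groups well apart at 10.42, 10.43, 10.40 and 10.45 and 9.09, 8.95, 9.03 and 8.93. Il6 itself rose by 0.51 ± 0.06. Of 19 ligands of the PDGF, VEGF, FGF and HGF families 4 rose and 10 fell. Pdgfc, a ligand of the PDGF alpha receptor, rose 2.4-fold (1.26 ± 0.07) and Vegfa by 0.99 ± 0.04. Angpt1, which calms vessels through Tie2, read 9.12, 9.10, 9.24 and 9.21 and fell to 6.96, 6.92, 6.78 and 6.73. The epithelial growth factors Fgf10 (-1.15 ± 0.06), Hgf (-0.73 ± 0.08) and Fgf7 (-0.63 ± 0.06) fell.

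In the insulin-like growth factor axis the binding proteins changed more than the ligand. Igf1 stood at 0.19 ± 0.05, or 0.01 after quantile normalization, and of 10 genes 4 rose and 5 fell. Igfbp3, a binding protein induced by TGF-β, read 13.80, 13.78, 13.81 and 13.82 with vehicle and 15.32, 15.27, 15.23 and 15.29 with TGF-β1. Igfbp4 read 11.35, 11.60, 11.36 and 11.39 and 9.82, 9.69, 9.69 and 9.71, and Igfbp5 fell by 1.65 ± 0.05. The groups did not overlap in any of these 3. Of 22 BMP, GDF and activin ligands and antagonists 7 rose and 11 fell. The BMP ligands Bmp3 (-1.92 ± 0.18), Bmp4 (-1.41 ± 0.07) and Bmp6 (-1.30 ± 0.08) fell, as did Gdf10 (-1.61 ± 0.11) and the stress cytokine Gdf15 (-2.17 ± 0.06). Chrdl1, an antagonist of BMPs, fell 10.4-fold, from 9.07, 8.98, 9.06 and 9.11 to 5.66, 5.58, 5.88 and 5.58, with -4.59 and -3.47 on its other probes. Gdf6 (1.74 ± 0.07), Gdf11 (1.55 ± 0.13) and the activin antagonist Fstl3 (1.20 ± 0.04) rose past 2-fold.

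Wnt signals shifted in composition. Of 21 Wnt ligands, antagonists and readouts 5 rose and 13 fell. Sfrp2, a secreted Wnt antagonist, read 11.76, 11.90, 11.78 and 11.76 with vehicle and 8.12, 7.94, 7.90 and 7.98 with TGF-β1, a 14-fold fall. Dkk2, an antagonist of another class, rose 4.38-fold, from 6.90, 6.77, 6.67 and 6.61 to 8.98, 8.83, 8.86 and 8.80. The amplifiers Rspo1 and Rspo2 fell, by 1.51 ± 0.06 and by 2.18 ± 0.08, the second with 1 of 4 TGF-β1 arrays above background. Axin2, a direct readout of canonical Wnt activity, was at -1.34 ± 0.17, with 3 of 4 TGF-β1 arrays above background. Wnt4 rose by 0.90 ± 0.05, while Wnt5a fell by 0.40 ± 0.04 and Wnt2 stood at 0.00 ± 0.06.

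Markers of the resting fibroblast types of the lung fell. Of 22 alveolar fibroblast and lipofibroblast markers 3 rose and 17 fell, 12 of them at least 2-fold, with a median of -1.03. Adh1, an alcohol dehydrogenase, read 12.29, 12.31, 12.32 and 12.22 with vehicle and 8.87, 8.78, 8.95 and 8.88 with TGF-β1. The lipid genes fell in step, with Pparg, the master regulator of fat storage, at -1.74 ± 0.06, the fatty acid carriers Cd36 (-1.87 ± 0.07) and Fabp4 (-1.45 ± 0.05), the acid lipase Lipa (-1.06 ± 0.07), and Plin2 of lipid droplets (-0.78 ± 0.05). Pdgfra, which marks these cells, fell by 0.44 ± 0.05. The nephronectin receptor chain Itga8, on the same list, rose by 0.64 ± 0.05. Of 19 adventitial and progenitor markers 2 rose and 16 fell, 14 at least 2-fold, with a median of -1.70. Pi16, which marks universal progenitor fibroblasts, read 9.06, 8.72, 8.95 and 8.77 with vehicle and 6.75, 7.09, 7.02 and 6.76 with TGF-β1. Dpt, or dermatopontin (-2.65 ± 0.10), Ly6c1 (-2.03 ± 0.08), Ly6a (-2.07 ± 0.10), Cd34 (-1.24 ± 0.06), Dpp4 (-1.17 ± 0.05) and the actin-severing Gsn (-1.18 ± 0.05) fell. Thy1, a surface glycoprotein, went up in the same list, from 11.23, 11.29, 11.28 and 11.21 to 12.61, 12.70, 12.81 and 12.73. Islr itself, the gene of meflin, read 10.88, 10.78, 10.87 and 10.75 with vehicle and 8.23, 8.35, 8.42 and 8.36 with TGF-β1, a 5.58-fold fall (adjusted p = 2.6e-13).

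Transcription factors of mesenchyme moved less than these markers. Of 33 tested 10 rose and 17 fell, 4 falling at least 2-fold, or 2 after normexp correction. Prrx1, a factor of mesenchymal identity, had the largest rise (0.99 ± 0.05). The homeobox genes Meox1 (-1.75 ± 0.14) and Meox2 (-0.94 ± 0.05) fell, as did Sox9 (-1.33 ± 0.12), Egr2 (-1.67 ± 0.08) and Egr3 (-2.25 ± 0.10). Meox1 read 6.32, 6.20, 6.36 and 6.25 with vehicle and 4.36, 4.23, 5.04 and 4.50 with TGF-β1. Twist1, a factor of epithelial to mesenchymal transition, rose by 0.37 ± 0.06.

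More enzymes of retinoid and foreign compound metabolism fell than rose. Of 24 tested 7 rose and 14 fell, 11 at least 2-fold (6 after normexp correction and 6 among probes above background on all 8 arrays), with a median of -0.90, or 0.02 over the 18 members above background on all 8 arrays. Fmo2, the flavin monooxygenase of lung, read 12.18, 12.16, 12.06 and 11.98 with vehicle and 8.42, 8.51, 8.62 and 8.65 with TGF-β1, an 11.7-fold fall. Its relative Fmo1 fell at least 5.56-fold to background. Retinaldehyde dehydrogenases split, with Aldh1a1 (-1.51 ± 0.04) and Aldh1a3 (-2.19 ± 0.08) down and Aldh1a2 up (0.66 ± 0.03). The retinoic acid receptor Rarb rose by 1.83 ± 0.05, from 9.28, 9.30, 9.24 and 9.36 to 11.09, 11.10, 11.16 and 11.14, and the retinoic acid binding protein Crabp1 by 1.10 ± 0.05.

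In each of the 4 inflammatory lists most genes fell. Of 20 chemokines and receptors 4 rose and 15 fell, 11 at least 2-fold. Ccl11, or eotaxin, which attracts eosinophils, read 8.53, 8.53, 8.52 and 8.46 with vehicle and 4.04, 4.20, 4.24 and 4.25 with TGF-β1. Cxcl1 (-2.76 ± 0.12) and Cxcl5 (-2.72 ± 0.11), which attract neutrophils, fell. Cxcl12, which holds progenitor cells in niches, rose 2.66-fold, from 13.42, 13.45, 13.68 and 13.60 to 14.86, 14.94, 14.97 and 15.04, while its receptor Cxcr4 fell by 1.98 ± 0.08. Cxcl14 also rose, by 1.54 ± 0.05. Both rises rest on the brightest probe, since another probe gave -0.05 for Cxcl12 and 0.05 for Cxcl14. Of 25 cytokine and pattern recognition genes 6 rose and 18 fell. Tslp, an epithelial-type alarmin, read 9.80, 9.70, 9.90 and 9.91 with vehicle and 6.60, 6.68, 6.57 and 6.68 with TGF-β1, a 9.16-fold fall. Il33, another alarmin, fell by 0.83 ± 0.08 and its receptor Il1rl1 by 1.65 ± 0.11, with -0.60 on another probe. Lcn2, an iron-trapping acute phase protein, was at -2.79 ± 0.15 (-4.05 on another probe), and the monocyte growth factor Il34 at -1.65 ± 0.07, while Csf1, which acts on the same receptor as Il34, rose by 0.72 ± 0.03.

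Interferon genes fell, but by amounts that differed between the slides. Of 27 interferon-stimulated and antigen presentation genes 26 fell, 6 of them at least 2-fold (10 after quantile normalization, and also 10 without vehicle replicate 1 or without vehicle replicate 2), and 0 rose, with a median of -0.76. Ifit3, an antiviral protein that binds viral RNA complexes, read 10.33, 10.52, 11.62 and 11.60 on the vehicle arrays and 9.03, 8.92, 9.09 and 9.05 on the TGF-β1 arrays. Ifit1, its partner, read 7.48, 7.77, 9.28 and 9.31 and 7.67, 7.53, 7.34 and 7.52. On both genes the vehicle arrays of slide 1 (replicates 1 and 2) lay below those of slide 2 (replicates 3 and 4), while the TGF-β1 arrays were level, and for Ifit1 the slide 1 arrays of the groups overlapped. The difference in Ifit1 (-0.95 ± 0.33) did not pass without vehicle replicate 3 (-0.67, adjusted p = 0.0758), without vehicle replicate 4 (-0.66, adjusted p = 0.0754) or with the spread of the wild type arrays alone (adjusted p = 0.0651). The difference in Ifit3 was -1.45 within slide 1 and -2.54 within slide 2. Within slide 1, 19 of the 27 fell, 4 of them at least 2-fold, and within slide 2, 26 fell, 12 of them at least 2-fold. Each slide held 2 arrays a group. Of all 15394 genes tested, 3370 fell within slide 1 and 3756 within slide 2, 965 and 1023 of them at least 2-fold. Rsad2, another antiviral protein, did not pass over both slides (-0.39 ± 0.35) and stood at 0.31 within slide 1 and -1.10 within slide 2. Slide and experiment number cannot be told apart here, because each slide held 2 replicate numbers of every group. The class I antigen presenting genes H2-D1 (-1.70 ± 0.05), H2-K1 (-0.85 ± 0.04) and B2m (-0.71 ± 0.04) fell, with the caution that near-identical class I genes may share probes. Of 17 complement genes 14 fell, 0 rose and 3 did not pass, and 15 fell within each slide. C3, the hub of the cascade, read 16.39, 16.32, 16.46 and 16.46 with vehicle and 14.19, 14.19, 14.23 and 14.24 with TGF-β1, a 4.57-fold fall. Cfb of the alternative pathway (-2.47 ± 0.07) and C4b of the classical pathway (-1.91 ± 0.06) fell beside it. Macrophage and leukocyte markers moved in the same direction as these inflammatory lists. Of 21 such markers 2 rose and 16 fell, and their summed signal ran from 257678 to 297597 on vehicle arrays and from 154688 to 164882 on TGF-β1 arrays. All 21 were well above background in both groups, and none of the defining genes was at 0. Itgax was at -2.05 ± 0.06, Cd68 at -1.29 ± 0.06, Ptprc at -0.98 ± 0.08 and Csf1r at -0.44 ± 0.07. Their part in the falls of the inflammatory lists was not tested.

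Vasoactive genes went both ways. Of 33 tested 10 rose and 16 fell. Edn1, the vasoconstrictor endothelin, rose 4.52-fold, from 7.58, 7.39, 7.72 and 7.81 to 9.75, 9.76, 9.77 and 9.92, while its receptors Ednra (-0.58 ± 0.05) and Ednrb (-0.78 ± 0.14) fell. In the angiotensin system, besides the fall of Agtr2, the converting enzyme Ace read 7.55, 7.82, 7.72 and 7.59 with vehicle and 5.08, 5.44, 5.52 and 5.68 with TGF-β1. The prostacyclin receptor Ptgir fell by 1.65 ± 0.04. The alpha 2 adrenergic receptor Adra2a (1.70 ± 0.16) and Npr3, which clears natriuretic peptides (2.04 ± 0.05), rose past 2-fold.

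Adenosine handling changed at successive steps. Nt5e, or CD73, which makes adenosine from AMP, read 7.47, 7.04, 7.42 and 7.28 with vehicle and 11.10, 10.94, 10.96 and 10.88 with TGF-β1, a 12.7-fold rise. Entpd1, or CD39, which supplies the AMP, fell by 2.29 ± 0.07, from 8.96, 8.87, 9.16 and 9.15 to 6.69, 6.73, 6.68 and 6.88, and Entpd2 by 1.41 ± 0.07. The groups did not overlap in any of these 3 enzymes, but Nt5e was picked from genes whose groups did not overlap. The adenosine receptors Adora2b (1.44 ± 0.06) and Adora2a (0.79 ± 0.18) rose, as did Adora1 (1.84 ± 0.16), which was above background on 3 of 4 vehicle arrays. Ada, which removes adenosine, rose by 1.12 ± 0.05. Among arginine enzymes Arg1 rose while Arg2, the mitochondrial form, fell at least 2.06-fold to background. Srm, which makes the polyamine spermidine, rose by 0.69 ± 0.05. Over the list of 21 genes 11 rose and 8 fell.

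Growth genes rose by small amounts. All 21 mitosis genes rose, 3 of them at least 2-fold, with a median of 0.61, and of 20 DNA replication genes 16 rose and 1 fell, none by 2-fold. Kif20a (1.10 ± 0.05), Plk1 (1.02 ± 0.06) and Aurka (1.02 ± 0.05), which run spindle and division, were the 3, but only 1 gene passed 2-fold within slide 1, without TGF-β1 replicate 3, after quantile or normexp normalization, or in the authors' value table. Plk1 read 11.49, 11.50, 11.48 and 11.45 with vehicle and 12.33, 12.54, 12.61 and 12.53 with TGF-β1, and the groups did not overlap. Mki67, the usual marker of cycling cells, rose by 0.43 ± 0.05. Of 19 cell cycle inhibitors and p53 targets 11 rose and 5 fell, with a median of 0.25 that became -0.11 over the 8 in the authors' value table. Cdkn1a (0.49 ± 0.06) and Cdkn2a (0.64 ± 0.06) rose, while after Cdkn1c the largest fall was that of the stress protein Sesn1 (-0.70 ± 0.05).

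Metabolic genes moved pathway by pathway. Of 28 glycolysis and hypoxia genes 21 rose and 6 fell, 11 rising at least 2-fold (7 after quantile or normexp normalization), with a median of 0.73. Slc16a3, which exports lactate, rose 4.83-fold, from 11.78, 11.81, 11.93 and 11.81 to 13.99, 14.10, 14.17 and 14.15. Tpi1 (1.59 ± 0.04), Pgk1 (1.39 ± 0.04), Gapdh (1.27 ± 0.04) and Eno1 (1.25 ± 0.03) of the pathway's later steps rose, as did Pfkl (1.61 ± 0.06), its regulated step. Bnip3, which marks mitochondria for removal in low oxygen (2.00 ± 0.06), and Pdk1, which keeps pyruvate out of mitochondria (1.44 ± 0.07, 0.23 on another probe), rose with them. Car9, a hypoxia-induced carbonic anhydrase, was at -1.44 ± 0.06, and Slc16a1, another lactate carrier, at -0.81 ± 0.06. Gapdh, often used as a reference gene, was thus 2.42-fold higher with TGF-β1.

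Amino acid synthesis rose with glycolysis. Of 17 genes of serine, glycine and proline synthesis 13 rose and 2 fell, 7 rising at least 2-fold. Shmt2, which makes glycine in mitochondria, read 10.49, 10.70, 10.63 and 10.56 with vehicle and 12.12, 12.26, 12.25 and 12.27 with TGF-β1. Mthfd1l (1.43 ± 0.07), Mthfd2 (1.20 ± 0.05), Psat1 (1.01 ± 0.05) and Aldh18a1 of proline synthesis (1.23 ± 0.04) rose with it. Of 32 ATF4 targets and unfolded protein response genes 25 rose and 3 fell. The pseudokinase Trib3 rose 4-fold (2.00 ± 0.05), while Atf3 (-1.70 ± 0.06) and the cystine carrier Slc7a11 (-1.28 ± 0.07) fell. Of 26 cholesterol and fatty acid genes 2 rose and 17 fell, and the median of -0.27 became 0.20 over the 4 in the authors' value table. Antioxidant genes were 7 up and 14 down of 27. The glutathione transferases Gstm1 (-1.94 ± 0.05) and Gstt1 (-1.41 ± 0.06) and catalase, Cat (-0.97 ± 0.05), fell, while the peroxide-making oxidase Nox4 rose by 0.56 ± 0.05. Of 27 respiratory chain subunits 24 rose and 1 fell, all by less than 2-fold, and their median of 0.25 was 0.01 after quantile normalization.

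Markers of other cell types that a digested lung can hold were measurable. Of 19 endothelial markers 1 rose and 15 fell, with Vwf (-1.85 ± 0.05), Cldn5 (-1.23 ± 0.05) and Kdr (-1.02 ± 0.07) among the falls and Flt1 the rise (0.96 ± 0.07). Their summed signal ran from 14895 to 15469 on vehicle arrays and 9633 to 10213 on TGF-β1 arrays. Of 15 epithelial markers 5 rose and 6 fell. The summed epithelial signal went from 11214 to 11755 with vehicle to 13709 to 14553 with TGF-β1, and 14 and 9 of the 15 were well above background on all arrays of those groups. The secretory cell genes Sftpb and Scgb1a1 fell at least 2.32-fold and at least 3.14-fold to background, while Krt18 (0.78 ± 0.06), Krt8 (0.72 ± 0.04) and Cdh1 (0.98 ± 0.07) rose. Of 11 mesothelial markers 3 rose and 7 fell, with sums of 52395 to 56818 and 44533 to 46900. Of 17 pericyte and smooth muscle markers 8 rose and 7 fell, with sums of 36499 to 37910 and 54943 to 57862. The members of that list that rose at least 2-fold, Myh11, Actg2, Des and Lmod1, are contractile genes, while Abcc9 (-1.88 ± 0.29), Hhip (-2.25 ± 0.12, 3 of 4 TGF-β1 arrays above background) and Synpo2 fell. The part of these cell types in the results above was not tested.

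Fibroblasts without Meflin served as a comparison of the response itself. The wild type and knockout differences correlated across the 15394 genes with r of 0.813, where genes are not independent replicates. Of the 502 wild type rises of at least 2-fold, 435 were among the 1472 rises of at least 2-fold in the knockout, which were 9.56% of all genes. Of the 993 falls 870 were among the 2088 falls of that size in the knockout, 13.6% of all genes. The difference between the responses was tested as an interaction, knockout minus wild type, and 58.2% of genes passed it. It passed in 1045 of the 1495 genes changed at least 2-fold in wild type cells, and in 847 of them the response was the larger one in the knockout. The contractile genes were of that kind, with Cnn1 at 4.15 ± 0.05 in wild type and 5.12 ± 0.05 in knockout cells (interaction adjusted p = 3.57e-08), and Acta2 at 2.19 ± 0.05 and 2.63 ± 0.05 (interaction adjusted p = 8.34e-05). Col1a1 rose by 0.68 ± 0.04 in wild type and 0.74 ± 0.04 in knockout cells, a difference of 0.06 ± 0.06 that did not pass. Wfdc21 and Arg1 rose more in wild type cells, with interactions of -1.36 ± 0.17 and -0.87 ± 0.15.

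Among genes called at least 2-fold in wild type cells, the widest gaps between the genotypes were falls that were larger in knockout cells. Gdf10 fell by 1.61 ± 0.11 in wild type and was at -8.81 ± 0.11 in knockout cells, and Igfbp5 by 1.65 ± 0.05 and at -8.65 ± 0.05, both above background on all 16 arrays. The steroid sulfate carrier Slc10a6 fell 2.56-fold in wild type and at least 55.7-fold in knockout cells. The adhesion molecule Chl1 fell 2.77-fold and at least 44.5-fold, the matrix protein Abi3bp 2.24-fold and at least 26.2-fold, and the macrophage lectin Clec10a 2.36-fold and at least 18.4-fold. In these 4 genes no knockout TGF-β1 array was well above background, while all 4 wild type ones were. In the other direction C1qtnf3, a secreted adipokine-like protein, rose by 1.89 ± 0.09 in wild type and 5.34 ± 0.09 in knockout cells, with wild type differences of 0.95 and 3.41 on its other probes. Acan and Krt20 rose at least 1.69-fold and at least 4.55-fold in wild type and at least 18.4-fold and at least 47.3-fold in knockout cells. Hspb3, a small heat shock protein of muscle, and Ccdc81 rose at least 8.67-fold and at least 4.86-fold in the knockout. Neither was well above background on any wild type array, so both passed the filter only through the knockout TGF-β1 arrays and have no measured wild type fold.

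In 608 of the 15394 genes tested the responses of both genotypes passed with opposite signs. This count was made with the main scaling only. Nrg1 fell by 1.42 ± 0.06 in wild type cells and rose by 1.16 ± 0.06 in knockout cells (interaction adjusted p = 9.67e-12). Eln, at -1.68 ± 0.08 in wild type, was at 0.46 ± 0.08 in knockout cells, and Tgfb1, at -0.41 ± 0.08, was at 0.69 ± 0.08. Calca rose by 2.92 ± 0.17 in wild type cells, while in the knockout it was above background on 3 of 4 vehicle arrays and on 0 of 4 TGF-β1 arrays (interaction adjusted p = 3.21e-10). Akr1c19, an aldo-keto reductase, was above background on 2 vehicle and 0 TGF-β1 arrays of the wild type, at 4.37, 3.80, 3.20 and 3.54 and 1.56, 1.66, 2.49 and 2.47, and on 2 vehicle and 4 TGF-β1 arrays of the knockout, where it rose by 3.58 ± 0.35.

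**Figure D5:**
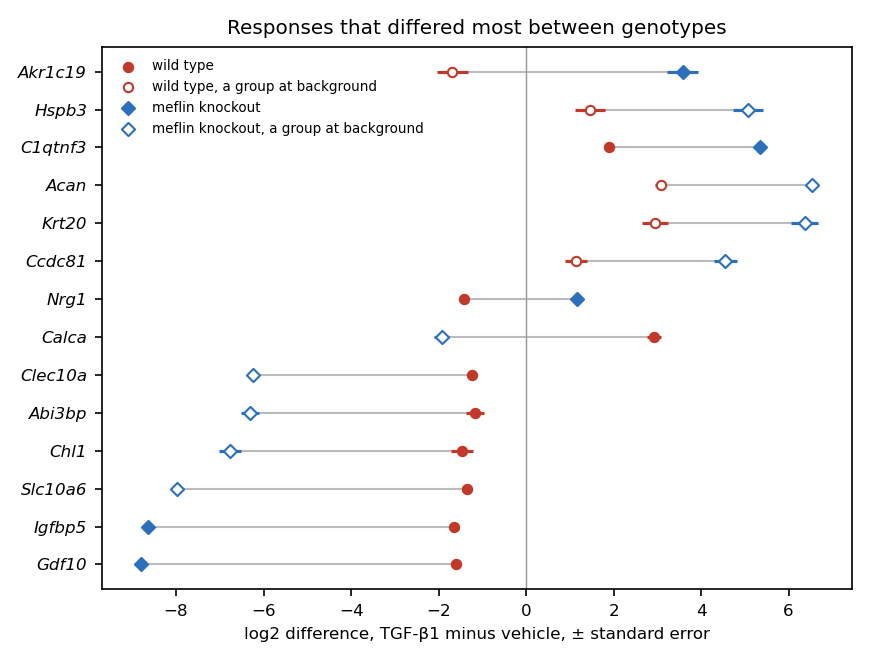
Log2 difference, TGF-β1 minus vehicle, with its standard error (horizontal) in wild type (red circles) and Meflin knockout cells (blue diamonds) for the 6 most positive and 6 most negative interactions among genes called at least 2-fold by the fit in wild type cells, with Calca and Nrg1, which responded in opposite directions. Open symbols have a group with no array well above background, so their position is not a measured fold. Gdf10 and Igfbp5 fell by 1.61 and 1.65 in wild type cells and stood below -8 in knockout cells.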

How the data were processed

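RNA of 16 samples of lung fibroblasts was measured on 1-colour Agilent mouse arrays, of which the 8 wild type arrays carry the comparison. Per the file headers, the deposited scanner files hold intensities that the authors obtained with Agilent Feature Extraction 11.0.1.1, which subtracts background and detrends within each array and does not normalize between arrays. Gene names were given by matching the accession of each probe in the files to RefSeq and Ensembl accessions. An accession shared by several gene symbols gave no name. The authors' deposited value table holds log2 values of 9933 probes. They follow the log2 intensities with r of at least 0.999, but their selection and centring are not given in the sources used here. Column medians there were 6.595, 6.598, 6.615 and 6.609 for wild type vehicle and 6.473, 6.466, 6.493 and 6.469 for wild type TGF-β1. For the knockout they were 6.586, 6.593, 6.567 and 6.58 with vehicle and 6.391, 6.38, 6.388 and 6.381 with TGF-β1.

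Here, spots of a probe were averaged, log2 intensities were shifted to a common 75th percentile, and 27 probes with outlier marks were left out. Of 56605 probes, 32994 have a gene name (22911 names). A probe had to be well above background throughout any 1 of the 4 groups, which left 33888, of which 22709 have a name. The brightest kept probe stood for its gene, giving 15394 genes. A model with 1 coefficient per group was fitted to all 16 arrays with limma 3.58.1 in R 4.3.3 (lmFit, eBayes, 2-sided, Benjamini-Hochberg adjustment over all genes tested). Errors after ± are standard errors of that fit. The wild type contrast of the model was also run on simulated data with known changes, drawn on the means and spread of the real genes.

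The members and gene lists were chosen with earlier results of these data known. Named genes were the largest rises and falls with groups that did not overlap (15 each way), the 10 largest bounds each way, members of the lists, the 6 most positive and 6 most negative interactions among genes changed at least 2-fold, and Islr. Symbols that are accessions or placeholder names were passed over. Genes with a CArG box outside the lists were chosen after their values were seen. Promoters came from RefSeq, GRCm38.p6, matched by symbol.

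Alternatives were quantile normalization, normexp correction (offset 50) with quantile normalization, the authors' table, no filter or a stricter filter on dim probes, the mean over a gene's probes, wild type arrays alone, slide or replicate number as a block, each slide alone, and each wild type array left out.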

Additional observations from a re-analysis of the deposited data

Results flagged for a closer look

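In the genes named above, a single array of a wild type group sometimes stood apart from the other 3 by more than Dixon's critical value for 4 values, measured as its gap to the nearest array over the range of the group. This was so in 32 of 638 groups of 319 genes. Chance alone sets apart about 1 in 20 groups. The levels below are normalized log2 signals of the array that stood apart, with the range of the other 3.

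TGF-β1 replicate 1 stood apart for Cxcr1 at 7.35 against 7.51 to 7.52, Cnn2 at 13.67 against 13.74 to 13.75, Crabp1 at 10.40 against 10.50 to 10.52 and Ctsk at 14.25 against 14.20 in the others. This array also stood apart for Fhl1 at 15.38 against 15.47 to 15.48, Gsn at 15.13 against 15.22 to 15.23, Igfbp4 at 9.82 against 9.69 to 9.71 and Itgb5 at 14.30 against 14.38 to 14.39. It also did for Shmt2 at 12.12 against 12.25 to 12.27. TGF-β1 replicate 2 stood apart for Cxcr4 at 6.69 against 6.95 to 6.96. TGF-β1 replicate 3 stood apart for Actg1 at 16.50 against 16.55 in the others, Bmp6 at 6.56 against 6.85 to 6.90, Col10a1 at 3.38 against 3.82 to 3.87 and Hhip at 4.76 against 4.28 to 4.36. It was also apart for Slc7a11 at 7.32 against 7.15 to 7.16 and Tgfb1 at 9.42 against 9.29 to 9.31. TGF-β1 replicate 4 stood apart for Edn1 at 9.92 against 9.75 to 9.77. Vehicle replicate 1 stood apart for Tgfbr1 at 10.47 against 10.54 to 10.56. Vehicle replicate 2 stood apart for Sfrp2 at 11.90 against 11.76 to 11.78, Ednra at 11.32 against 11.46 to 11.48, Fbn2 at 7.36 against 7.19 to 7.22 and Igfbp4 at 11.60 against 11.35 to 11.39. So it was for Kdr at 8.40 against 8.54 in the others, Lmcd1 at 10.33 against 10.21 to 10.22, Ltbp2 at 14.22 against 14.36 to 14.38 and Smad1 at 12.13 against 12.27 to 12.29. Vehicle replicate 3 stood apart for Aldh1a2 at 12.94 against 12.89 to 12.90, Axin2 at 5.21 against 5.65 to 5.72 and Gdf11 at 4.62 against 4.30 to 4.35. Vehicle replicate 4 stood apart for Ccl11 at 8.46 against 8.52 to 8.53, Adora2a at 6.74 against 7.23 to 7.28 and Fbln5 at 13.32 against 13.37 in the others.

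The response of wild type cells differed from that of knockout cells in many genes by the interaction test, and 14 are given here. They include the widest gaps each way among genes changed at least 2-fold in wild type cells. Genes that changed less in wild type cells could not enter that set. The rest are genes at least 2-fold in opposite directions, sought only among the genes named above. Values are knockout minus wild type response in log2 units. On the negative side were Gdf10 (-7.20), Igfbp5 (-7.00), Slc10a6 (-6.63), Chl1 (-5.29), Abi3bp (-5.15), Clec10a (-5.01) and Calca (-4.86). On the positive side were Akr1c19 (5.26), Hspb3 (3.62), C1qtnf3 (3.45), Acan (3.45), Krt20 (3.42), Ccdc81 (3.42) and Nrg1 (2.59). Gdf10, Igfbp5, C1qtnf3 and Nrg1 were well above background on all 16 arrays. The values of the other 10 include groups at background and are no measured folds.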

How the results depend on the processing

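Over the counts of genes and of list members, 125 alternative values lay within 1.5 times the reported count and 7 did not. Normexp correction with quantile normalization left 216 rises and 528 falls of at least 2-fold, and 65 list members with such a rise. The authors' value table, with 5257 genes tested, gave 2019 rises, 2357 falls and 3825 genes with differing genotype responses. Its changes of at least 2-fold were more, 617 rises and 1077 falls against 502 and 993 here. Within slide 1, with 2 arrays a group, 5615 genes passed the interaction. The causes of these differences from the main counts were not tested.

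Leaving out each wild type array in turn left 6022 to 6329 rises and 3962 to 4230 falls, 487 to 516 rises and 971 to 1025 falls of at least 2-fold, 8639 to 9050 interactions, and 94 to 102 rises and 142 to 153 falls of at least 2-fold among list members. The deviations of same-numbered arrays from their group means correlated at 0.007, 0.012, 0.068 and 0.025. Whether same-numbered arrays share an experiment is not stated, and these correlations cannot settle it. The replicate block gave 6507 rises and 4284 falls, 503 rises and 993 falls of at least 2-fold, and 9308 interactions. With slide as a block these were 6527 rises, 4290 falls and 9348 interactions.

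Among the values of single genes, 5949 kept direction and side of the threshold, 23 lost it, 2 gained it and 3 turned in sign. The last were Col3a1, at -0.05 after quantile normalization, also -0.05 in the authors' deposited values, and Actb, at 0.00 after normexp correction. For these the cause was not tested. Of the counts of members past 2-fold in single lists, 1578 stayed close and 94 moved. The medians of lists were not classed in this way. Genes without an array above background in a group have no measured fold, which limits all bounds given above.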

Other observations

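Probes whose accession matched no single gene name were fitted too. Of 33888 probes kept, 11179 had no gene name, and of these 343 rose and 572 fell at least 2-fold with TGF-β1 in wild type cells. Among the named genes tested, 3.26% rose and 6.45% fell by that much. They entered no count of genes.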
